A study of Mus musculus with 14 samples.

Results

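The ovary library of a mouse tissue miRNA survey was dominated by miR-143, and the profile beneath that miRNA is described here. The row of miR-143 was removed from every library, the remaining reads were scaled to a total of 1000000 per library (reads per 1000000, RPM), and names with 10 or more ovary reads were set against the median and the highest of the other 13 libraries. That left 99 names of the 1046 in the table, of which 805 had a read in some library. The study profiled small RNA in 14 tissues of C57BL/6J mice, an inbred strain, each tissue being represented by 1 library made from pooled total RNA, with no treatment. Ovary was set against brain, cerebellum, colon, heart, kidney, liver, lung, oesophagus, pancreas, small intestine, spleen, stomach and uterus, all prepared with Trizol from the same strain. The labels give no age and no stage of the oestrous cycle, and they name 5 mice at harvest and 10 mice in the pool, so the number of animals is not settled. With 1 library a tissue there are no replicates and no tests, and every interval below is an exact 95% interval that covers counting error only.

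miRNAs are short RNAs that guide silencing proteins to messenger RNAs, and bases 2 to 8, the seed, do most of the pairing. The let-7 family is abundant in differentiated cells and held low in early embryonic and many stem cells, where LIN28 proteins block its maturation. In the ovary, miRNAs are known from granulosa cells, which surround the oocyte, and from the corpus luteum, the gland that a follicle leaves after ovulation. miR-143 and its neighbour miR-145 come from the same primary transcript and are best known from smooth muscle.

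The sequences of the names that stood high in ovary are shown because the family the results turn on differs by few bases. Mature sequences and positions are those of RefSeq (GRCm38.p6), matched by name for 88 of the 99 members. The deposited values carry no genome build. Capitals mark the seed.
let-7a: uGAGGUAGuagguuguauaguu
let-7b: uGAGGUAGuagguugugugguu
let-7c: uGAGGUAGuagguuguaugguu
let-7e: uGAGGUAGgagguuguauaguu
let-7f: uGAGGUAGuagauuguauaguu
miR-98: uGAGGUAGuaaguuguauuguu
miR-202-3p: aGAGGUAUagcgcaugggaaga
miR-672: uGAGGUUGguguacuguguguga
miR-322: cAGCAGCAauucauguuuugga
miR-322*: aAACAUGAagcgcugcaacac
miR-503: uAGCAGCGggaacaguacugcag
miR-10b: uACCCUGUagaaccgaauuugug

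Counted from 1 at the 5′ end and with let-7a first, let-7c carries A19G, let-7b A17G and A19G, let-7e U9G, let-7f G12A and miR-98 G11A and A19U. All 9 names of the let-7 family, miR-98 included, share the seed GAGGUAG. miR-202-3p shares bases 2 to 7 with them and not base 8, and miR-672 shares neither stretch. Across the 88 matched members there were 60 distinct seeds, of which 16 were shared by 44 members.

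The loci of these names are scattered, with a group on the X chromosome. Mir322 lies at chrX:53054255-53054349, Mir503 at chrX:53053984-53054054 and Mir542 at chrX:53049403-53049487, all on the minus strand and outside any other annotated gene (GENCODE M21). Mir672, at chrX:104116175-104116274, lies in an intron of Nexmif. Mir98, at chrX:151913214-151913321, lies in an intron of Huwe1. Mir202, at chr7:139957689-139957760, overlaps an exon of the long noncoding RNA Gm2044. Mir10b, at chr2:74726070-74726137, lies in introns of the Hox genes Hoxd3 and Hoxd4. Mir34c, at chr9:51103034-51103110, lies in an intron of Btg4 on the opposite strand. let-7c has a locus at chr16:77599657-77599750, in an intron of the noncoding Mir99ahg, and another at chr15:85706603-85706697, in an exon of Lncppara.

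The ovary library held 2267218 reads, and 1974868 of them were miR-143, or 87.1% (87.06–87.15%). The remaining 292350 reads compare with 86545 in the library labelled colon to 6502821 in kidney, at a median of 3754415. In ovary 10 reads are worth 34.2 RPM, and a count of 0 allows 3 reads, or 10.3 RPM. At 34.2 RPM or more there were 99 names in ovary, against 72 in pancreas, a median of 166 and 239 in brain. The libraries labelled colon and uterus go against their labels in the intestinal miRNAs miR-192, miR-194, miR-215 and miR-215*. These summed to 599 RPM in ovary, 1941 RPM in the library labelled colon, 182598 RPM in that labelled uterus and 460247 RPM in small intestine.

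miR-143 stood high in ovary beside few reads of its partner arm and of miR-145. Its partner arm, miR-143*, had 2 reads in ovary, which is 1.01 per 1000000 miR-143 reads (0.123–3.66). The library labelled colon had 1.67 per 1000000 (0.834–2.99), and pancreas, with 24978 miR-143 reads, had none. The other 11 libraries ran from 61.4 per 1000000 in lung to 644 in oesophagus, so the intervals of ovary and the library labelled colon overlap each other and no library of these 11. miR-145, from the same transcript, had 11 reads and 37.6 RPM in ovary, against 8.56 RPM in liver, a median of 316 RPM and 4709 RPM in stomach. Its fold lay below 0 on the log2 scale under each scaling tried, from −4.31 to −0.81. miR-145*, the other arm of that hairpin, had 32 reads and 109 RPM in ovary, against a median of 92.9, at a log2 fold of 0.23 that turned to −0.87 with miR-143 kept. This comparison of arms was chosen after its values were seen, and whether the counting of miR-143 reads or the library preparation plays a part was not tested.

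Against the median of the other libraries, with 1 RPM added to both sides, 16 of the 99 ovary names stood at least 4-fold above (16.2%), and 5 of those 16 belong to let-7. Of the 141 names whose median elsewhere reached 34.2 RPM, 67 stood at least 4-fold below in ovary (47.5%). Some of the 99 had a lower median elsewhere, were compared through their ovary reads alone and could not be called below. These were miR-322*, miR-503, miR-351, miR-196a, miR-672, miR-202-3p and miR-2137, all called above, and miR-542-3p. The read minimum thus partly sets the count above and the count of highest names that follows. Ovary held the highest level of all 14 libraries for 7 of 99 names (7.07%), namely let-7c, let-7a, miR-98, miR-322*, miR-503, miR-672 and miR-202-3p. The 3 names listed as markers of this library were chosen with earlier results of these data known. That let-7c and miR-322* were highest in ovary and miR-34c 2nd is therefore no support for them. For 6 of the 99 names (6.06%), these 7 without miR-672, the interval over the next library lay above 1 or no other library had a read. Of the 99 names, 35 lay above the median of the others (35.4%) and 25 at least 4-fold below (25.3%). Over the 149 names compared in either direction, 35 lay above (23.5%) and the median log2 fold was −1.83, against −0.91 over the 99.

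The excess of low values goes with the scaling. The let-7 family took 255159 of the 292350 reads, which left 37191 reads for all other names, and miR-143 with let-7 held 98.4% of the whole library. When let-7 was also removed from the totals, 42 names stood at least 4-fold above and 4 below, and the median of the 149 moved by 2.45 to 0.62. With median-of-ratios factors the counts were 24 and 14, and all 16 names called above were among the 24. Levels below are therefore shares of the reads beneath miR-143, and let-7 sets much of the remainder. By the same rule applied to each library in turn, 67 of 141 names were at least 4-fold below in ovary, 100 of 142 in pancreas, 49 of 142 in liver and 2 of 134 in stomach. Pancreas, where miR-148a alone held 65.2% of the reads, lay lower than ovary.

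**Figure D1:**
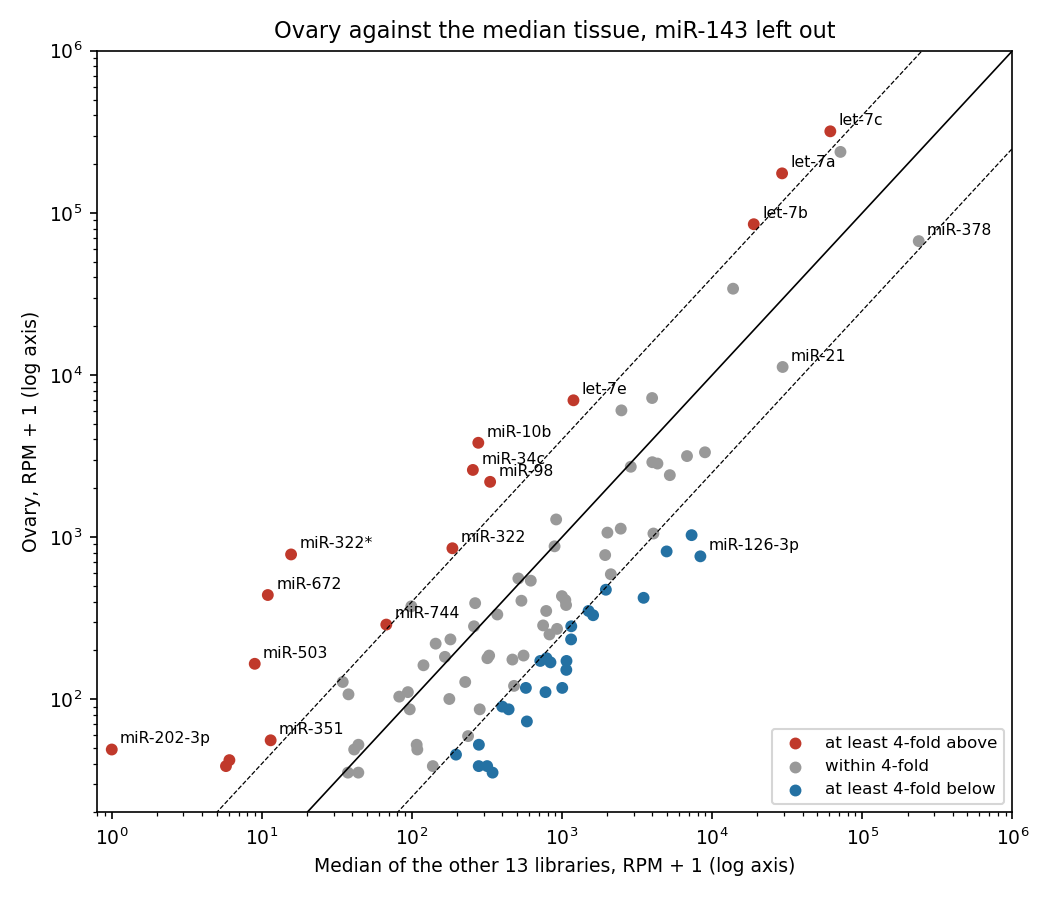
Each point is 1 of the 99 names, with its ovary level on the vertical axis and the median of the other 13 libraries on the horizontal axis (both RPM + 1, log axes), and dashed lines mark 4-fold. The 16 names at least 4-fold above include 5 of let-7 at the top and miR-322*, miR-672, miR-503 and miR-202-3p at the left. Those at the left were compared through their ovary reads alone, and 25 of the 99 lie at least 4-fold below.

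The let-7 family held 87.3% (87.2–87.4%) of the ovary reads other than miR-143. In the other 13 libraries its share ran from 6.75% in heart through a median of 20.1% to 68.9% in brain. Ovary lay above them all. The next were brain, spleen at 67.5% and the library labelled colon at 51.0%. All 9 members exceeded the median tissue and 5 stood at least 4-fold above it. Over all 99 names, these members included, 35.4% lay above the median and 16.2% at least 4-fold above. The list median was 2.17 on the log2 scale, which turned to −0.38 when miR-143 was kept in the totals.

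**Figure D2:**
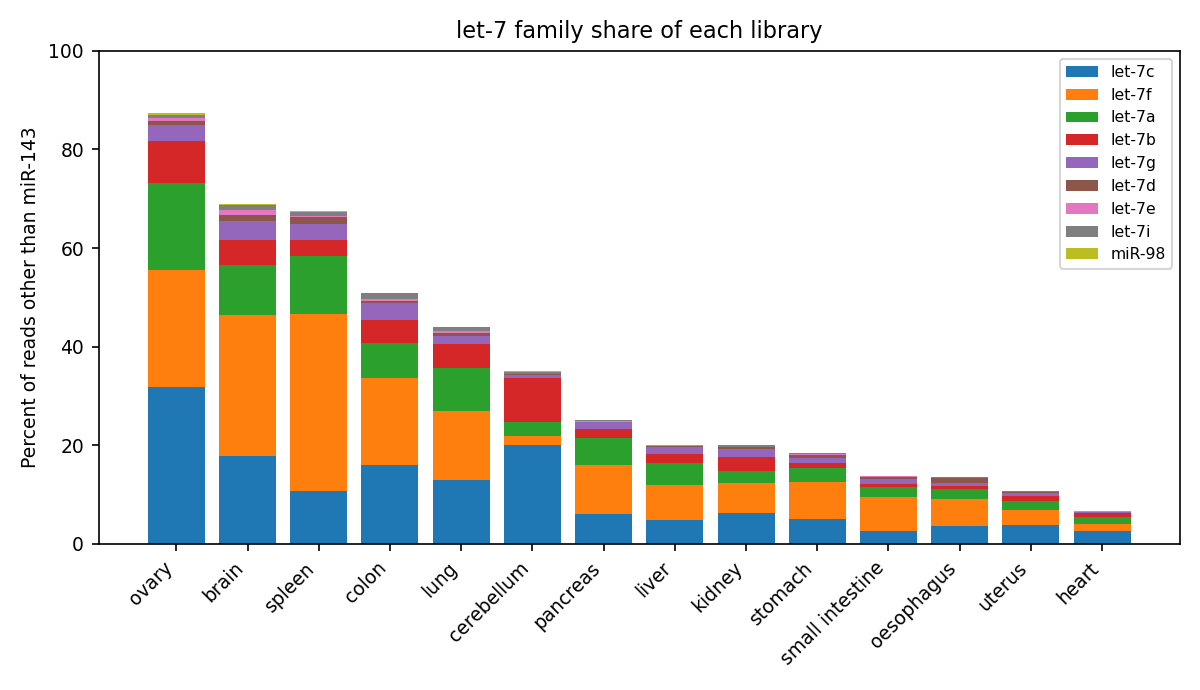
Stacked bars give the share of each let-7 family member in the reads other than miR-143 (percent, bars start at 0), for ovary first and then the other libraries by falling total. The ovary bar reaches 87.3%, above brain at 68.9% and spleen at 67.5%.

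let-7c, which differs from let-7a at the single base given above, was the most abundant name in ovary, with 93083 reads and 318396 RPM (316354–320448). The other libraries ran from 26317 RPM in heart through a median of 61170 to 201412 in cerebellum, so ovary was 1.58-fold (1.57–1.59) above the next. let-7a had 175211 RPM in ovary, against 13208 in heart, a median of 29192 and 117871 in spleen. Ovary was 1.49-fold (1.472–1.501) above spleen, and no library overlapped it. miR-98 had 2189 RPM in ovary (2023–2366), against 132 in heart, a median of 330 and 1622 in brain, over which ovary was 1.35-fold (1.24–1.46) higher. These 3 names were the ones of the family that peaked in ovary, and with miR-143 kept in the totals ovary ranked 8th for let-7c, 7th for let-7a and 6th for miR-98.

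The other members stood high without leading. let-7b had 85080 RPM in ovary, against a median of 18908 and 89806 in cerebellum, and let-7e had 6975 RPM against a median of 1189 and 11352 in brain. Both ranked second of 14. let-7f, the next most abundant name of the ovary library after let-7c with 237643 RPM, came behind spleen (358669) and brain (285484). let-7g had 34045 RPM, let-7d 7204 and let-7i 6044, with log2 folds over the median of 1.31, 0.86 and 1.28. With miR-143 kept in the totals the folds of let-7b, let-7c, let-7d, let-7f, let-7g and let-7i turned negative, from −0.95 to −0.12, and those of let-7a, let-7e and miR-98 stayed positive.

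The make-up of the family does not depend on the scaling. let-7c made up 36.5% (36.3–36.7%) of let-7 reads in ovary, against 16.01% in spleen, a median of 27.2% and 57.5% in cerebellum. let-7a made up 20.1% in ovary, against a median of 15.8%. let-7f made up 27.2% in ovary, against a median of 35.6%, and let-7i 0.693% against a median of 1.34%. Ovary ranked 3rd for let-7c and let-7a, 12th for let-7f and 13th for let-7i, so its mix lay inside the range of the other tissues for each of the 9. Because let-7 names differ at few positions and the handling of reads that match several names is not stated, shares within the family may partly be shared reads.

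The other arms of the let-7 hairpins, 7 names in the table, had 3 reads together in ovary. That is 11.8 per 1000000 let-7 reads (2.42–34.4), against 19.95 in pancreas, a median of 349 and 1372 in cerebellum. The let-7 reads are those of all 9 names, but let-7a* and let-7f* have no row and miR-98* was not counted. The ratio therefore also depends on the mix of the family. Ovary was lowest, and its interval overlaps those of pancreas (4.11–58.3) and liver (26.7–49.4) and no other. let-7b* had 0 reads beside 24873 of let-7b. The place of starred names as a whole depends on the total. They held 0.327% of the reads other than miR-143 in ovary, against 0.0966% in pancreas, a median of 1.01% and 2.65% in lung, and ovary ranked 13th of 14. Of the reads other than miR-143 and let-7 they held 2.57% in ovary, against 0.129% in pancreas, a median of 1.40% and 5.56% in spleen, and ovary ranked 5th. These measures were chosen after the data were seen.

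miR-202, a miRNA known from mammalian gonads, was the only member of the 99 with no read in another library. miR-202-3p had 14 reads and 47.9 RPM (26.2–80.3) in ovary and 0 reads among 43954339 in the other 13 libraries. Each of those libraries was set at a limit of 3 reads. The ovary level of 47.9 RPM was 1.38 times that limit in the library labelled colon and 104 times in kidney, the shallowest and the deepest. These ratios leave out the counting error of the 14 ovary reads, so they are not lower bounds. Its partner arm miR-202-5p had 6 reads in ovary and 2 in brain. Of the 15 gonadal names in the table, most of them known from testis, these 2 and miR-743a with 1 read were the ones seen in ovary. The list summed to 71.8 RPM in ovary, and the highest other sum was 1.61 RPM in brain. In the library labelled colon a count of 0 allows 34.7 RPM, which lies inside the ovary interval.

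The miR-322 cluster on the X chromosome held 2 of the names highest in ovary, miR-322* and miR-503. miR-322 is the mouse counterpart of human miR-424, and miR-503, transcribed with it, has been described in mouse ovary. Among the cluster's 9 deposited names, 5 had 10 or more ovary reads, and 4 of these 5 were compared through their ovary reads alone, so no count or median over them is read. The other 4 were miR-503* with 4 reads and 13.7 RPM in ovary against a median of 12.7, miR-450b-3p with 3 reads, miR-542-5p with 2 and miR-450b-5p with 1. As a sum, the 9 names reached 2011 RPM in ovary, against 23.4 in pancreas, a median of 321 and 3294 in lung. Ovary ranked second to lung.

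miR-503 had 48 reads and 164 RPM (121–218) in ovary. It had none in pancreas, a median of 7.96 RPM and 42.5 RPM in lung, the next library, over which ovary was 3.87-fold (2.68–5.52) higher. No other library reached ovary. miR-322 had 852 RPM (749–964) in ovary, against 8.37 in pancreas, a median of 185 and 1518 in lung. Lung exceeded ovary here, spleen followed with 779 RPM inside the ovary interval, and the log2 fold of 2.20 became −0.08 with miR-143 kept. miR-503 made up 16.2% (12.2–20.9%) of miR-322 and miR-503 reads in ovary, against 1.73% in spleen to 8.30% in the library labelled uterus over the 10 others with 100 reads, at a median of 3.26%. Ovary lay outside that range. Below 100 reads, the library labelled colon had 15.8% of 19 reads (3.38–39.6%), cerebellum 8.33% of 12 and pancreas 0 of 5, and their intervals overlap ovary. This share does not depend on the scaling. But miR-503 was compared through its ovary reads alone and named as highest in ovary, so the share is no separate support.

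The more distant members were thinner. miR-351 had 16 reads and 54.7 RPM in ovary, against a median of 10.4 and 240 in lung. miR-542-3p had 37 reads and 127 RPM in ovary, against a median of 33.6 and 979 in lung, and its log2 fold of 1.88 turned to −0.21 with miR-143 kept. Both ranked second to lung. The library labelled uterus had 9.32 RPM of miR-351 and 33.6 RPM of miR-542-3p, below ovary for each.

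miR-322* had the largest fold over the median in the cluster, while miR-503 had the larger fold over the next library. It had 228 reads and 780 RPM (682–888) in ovary, against 0 in cerebellum, a median of 14.6 and 289 RPM in the library labelled colon, where it rests on 25 reads. Ovary was 2.70-fold (1.78–4.26) above that library, and the log2 fold over the median was 5.64, positive under each scaling. Next came lung at 199 RPM. The arms of its hairpin are shown because their balance differed. The hairpin is given with both mature arms in capitals, miR-322 first and miR-322* second.
miR-322 hairpin: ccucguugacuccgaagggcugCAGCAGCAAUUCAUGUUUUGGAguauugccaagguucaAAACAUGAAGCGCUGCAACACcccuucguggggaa

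In ovary 228 of the 477 reads of this hairpin came from miR-322*, or 47.8% (43.2–52.4%). The 10 other libraries with at least 100 reads ran from 1.29% in brain through a median of 9.05% to 18.7% in oesophagus. Of 32 hairpins with at least 100 reads in ovary and in 5 or more other libraries, this was the only one whose ovary interval lay outside the range of the others. Below 100 reads, the library labelled colon had 61.0% of 41 reads (44.5–75.8%) and pancreas 37.5% of 8 reads (8.52–75.5%), and both overlap ovary. A share within a hairpin does not depend on the scaling. But miR-322* was compared through its ovary reads alone and listed as a marker, so its share is no separate support.

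**Figure D3:**
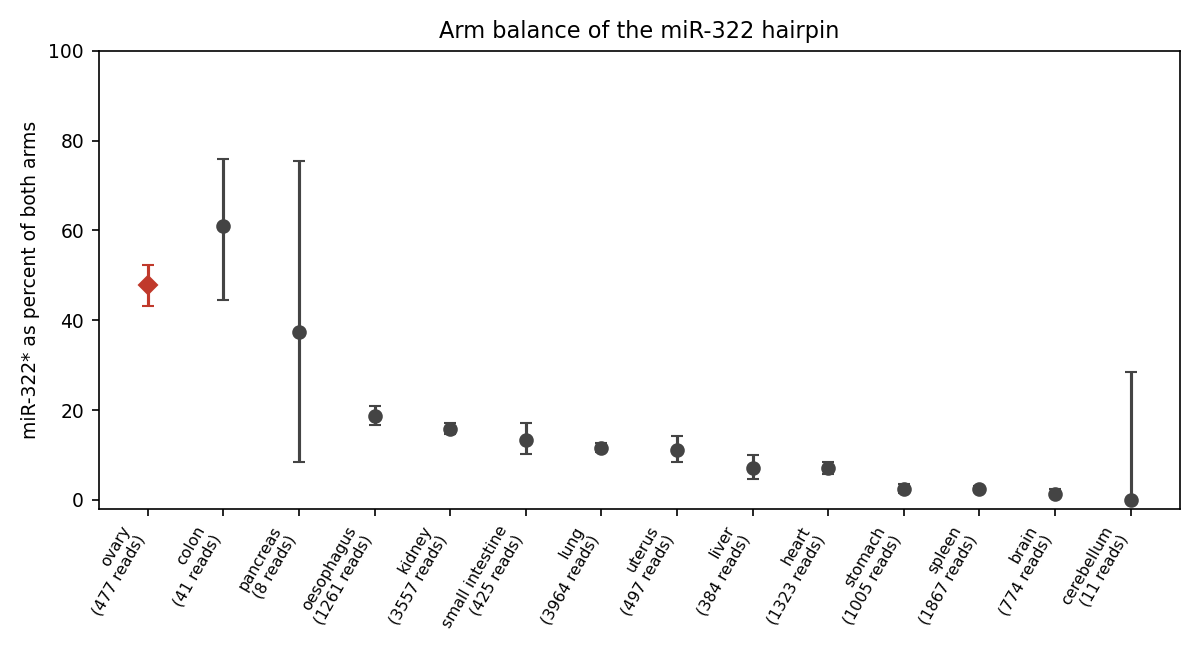
The vertical axis gives miR-322* as a percent of the reads of both arms of its hairpin, with exact 95% intervals for counting error, for ovary first and then the other 13 libraries (total reads of the hairpin in brackets). Ovary stands at 47.8%, the library labelled colon at 61.0% on 41 reads, and the 10 others with 100 reads or more between 1.29% and 18.7%.

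The other hairpins did not stand apart in this way. miR-126-3p made up 83.5% (78.4–87.7%) of its hairpin in ovary, against a median of 88.9%, and miR-30a* 9.48% (7.80–11.4%), against a median of 13.5%, both inside the range of the others. Of the 6 hairpins that lay farthest from the median of the other libraries, 5 had an arm with 0 ovary reads, so their ratios rest on the value added to avoid a division by 0. The exception was miR-151, where miR-151-3p made up 97.4% (95.3–98.7%) in ovary, against 30.9% in brain, a median of 72.2% and 98.0% in the library labelled colon. Ovary was inside that range. miR-140* made up 99.6% (97.6–99.99%) of its hairpin in ovary, against 67.5% in brain, a median of 93.0% and 97.8% in cerebellum, which lies inside the ovary interval, and was named after its value was seen.

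Among names that share the seed AGCAGCA, miR-322 took the largest part in ovary. It made up 52.2% (47.6–56.8%) of 477 reads of miR-322, miR-16, miR-195, miR-15a, miR-15b and miR-497 in ovary, against 1.79% in the library labelled colon, a median of 10.1% and 39.7% in heart. No other library reached ovary. miR-16, a widespread miRNA that restrains the cell cycle, made up 14.3% (11.2–17.7%) in ovary, against a median of 40.9%. miR-15a had no ovary read, and miR-15b had 1.

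miR-672 lay on the X chromosome as well. It had 128 reads and 438 RPM (365–521) in ovary. The others ran from 0 in pancreas through a median of 9.95 to 300 RPM in the library labelled colon, which had 26 reads, and then 103 RPM in brain. The log2 fold over the median was 5.32, positive under each scaling. Over the library labelled colon, ovary was 1.46-fold higher with an interval of 0.95 to 2.32, so these libraries were not distinguishable at this depth, and ovary ranked second when miR-143 was kept.

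**Figure D4:**
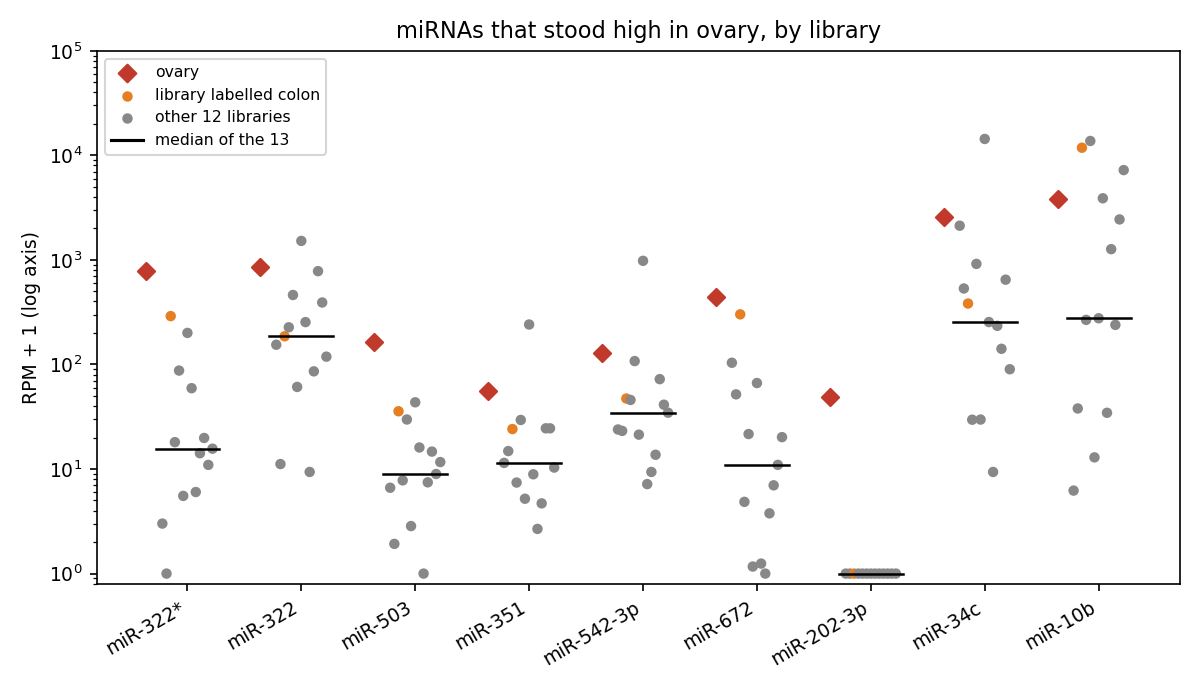
Points give the level of 9 miRNAs in each library (RPM + 1, log axis), with ovary as red diamonds, the library labelled colon in orange, the other 12 libraries in grey and the median of the 13 as a line. For miR-322*, miR-503, miR-672 and miR-202-3p ovary is the highest point, and for miR-322, miR-351, miR-542-3p, miR-34c and miR-10b at least 1 other library lies above it.

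miR-34c, of a family induced by p53 and known from ciliated epithelia and male germ cells, had 758 reads and 2593 RPM (2411–2784) in ovary. The others ran from 8.37 in pancreas through a median of 253 to 14335 in lung, and brain followed ovary with 2121 RPM. Ovary thus ranked second, and brain lay below its interval. The log2 fold was 3.35, positive under each scaling. Its relatives had few reads. miR-34b-5p had 5 reads and 17.1 RPM in ovary, against a median of 0.923 and 87.9 in lung, the one library above ovary. It made up 0.655% (0.213–1.52%) of the reads of miR-34b-5p and miR-34c in ovary, against 0.610% in lung. miR-34a had 2 ovary reads, miR-34b-3p and miR-34c* 1 each, and miR-449a, miR-449b and miR-449c, markers of ciliated cells, had 0. A count of 0 allows 10.3 RPM, and the medians elsewhere of these miR-449 names were 0. None of them could be called below, and their counts are not read as low. In bulk RNA, fewer cells of a type and less RNA per cell cannot be told apart.

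miR-10b, encoded in the Hoxd cluster, had 1115 reads and 3814 RPM (3593–4045) in ovary. The others ran from 5.22 in brain through a median of 276 to 13711 in kidney, and ovary ranked 5th, with 3882 RPM in oesophagus inside its interval. The log2 fold was 3.79, positive under each scaling, and without brain and cerebellum it was 1.59, short of 4-fold. miR-10a, encoded in the Hoxb cluster with the same seed, had 1050 RPM in ovary, against a median of 4056. miR-10b therefore made up 78.4% (76.2–80.5%) of the pair in ovary, against 0.486% in liver, a median of 20.6% and 74.5% in the library labelled colon over the 11 others with 100 reads. Ovary was highest. If reads of the pair were shared between names, the share would move.

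The 5 names of the Hox list summed to 4926 RPM in ovary, against 15.3 in brain, a median of 10184 and 56050 in kidney, and ovary ranked 8th. miR-196a had 11 reads and 37.6 RPM in ovary, against a median of 4.77 and 2927 in kidney, and was compared through its ovary reads alone. miR-196b had 5 ovary reads and miR-615-3p had 2. The other names at least 4-fold above were miR-744, with 287 RPM in ovary against a median of 66.4 and 1609 in cerebellum, and miR-2137, with 12 reads and 41.0 RPM against a median of 5.08 and 196 in the library labelled colon. Without pancreas, let-7b, miR-744 and miR-196a no longer reached 4-fold, at log2 folds of 1.91, 1.65 and 1.76. Without brain and cerebellum the same held for miR-322 and miR-196a, at 1.91 and 1.18.

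Outside let-7, the most abundant ovary names were miR-378, miR-21, miR-10b, miR-30a, miR-148a, miR-24 and miR-26a, and all of these but miR-10b, described above, were lower in ovary than in the median tissue. miR-378, encoded in the metabolic regulator gene Ppargc1b, had 66913 RPM in ovary, against 25026 in brain, a median of 237451 and 495327 in stomach. miR-21, a widespread miRNA linked to cell survival, had 11195 RPM in ovary, against 394 in pancreas, a median of 29436 and 58775 in the library labelled uterus. Both lay inside the range of the others, at log2 folds of −1.83 and −1.39, and with let-7 out of the totals they turned to 0.92 and 1.26. miR-30a had 3332 RPM in ovary against a median of 8944, and the pancreas-rich miR-148a 3157 RPM against 6790. miR-24 had 2894 RPM against 3987, and miR-26a 2839 RPM against 4314.

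Of the 67 names at least 4-fold below, 7 had no ovary read, 35 had 1 to 9 reads and 25 had 10 or more. With names at 0 set to their limit of 3 reads, 66 remained past 4-fold, and for 27 the upper end of the ovary counting interval still lay 4-fold below. miR-7a, known from endocrine cells and brain, had no ovary read and was at least 21.8-fold lower than its median of 223 RPM. miR-9, a neural miRNA, was at least 14.5-fold lower than its median of 149 RPM, and miR-15a at least 10.7-fold lower than its median of 110 RPM. These 3 were seen in each of the other 13 libraries. Their bounds hold for totals without miR-143 and were not computed under other scalings. With let-7 also out of the totals, a count of 0 allows a higher RPM. miR-203, a miRNA of stratified epithelium, had 3 reads in ovary, with a log2 fold of −6.06 (−7.91 to −4.60). The epithelial miR-200b and the cartilage miRNA miR-140 had 1 read each, at −6.04 (−8.06 to −3.85) and −5.72 (−7.75 to −3.54). The name miR-140 is the minor arm of its hairpin. Its main arm, miR-140*, had 226 ovary reads and a log2 fold of −1.32, so the hairpin as a whole was not near absent.

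Endothelial miRNAs were low. miR-126-3p, which lies in an intron of Egfl7 and marks blood vessels, had 222 reads and 759 RPM (663–866) in ovary, against 256 in pancreas, a median of 8336 and 71736 in lung. miR-126-5p had 151 RPM in ovary, against a median of 1065. Both were at least 4-fold below, against 47.5% of all names. Their log2 folds stayed negative under each scaling, from −5.80 to −0.89 and from −5.29 to −0.59. Pancreas and cerebellum, at 256 and 356 RPM of miR-126-3p, were the libraries below ovary. The list medians that follow stand beside the −1.83 median of all 149 names.

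All 4 compared names of the epithelial miR-200 family were at least 4-fold below, against 47.5% of all names, with a median of −2.92. The family summed to 171 RPM in ovary, against 41.5 in cerebellum, a median of 1479 and 29609 in small intestine. Ovary ranked 10th, with heart at 87.3, brain at 100 and liver at 118 RPM also below it. Of red blood cell names 2 of 2 were below, too few to read as a trait of the list, and miR-451 had 1 read. Of white blood cell names 2 of 4 were below, near the 47.5% of all names, with a median of −2.32, among them miR-142-3p with 5 reads and 17.1 RPM in ovary against a median of 386 RPM. Its partner miR-142-5p had 219 RPM in ovary against a median of 142.8, which turns lower when miR-143 is kept. With let-7 out of the totals, the medians of the miR-200 and red blood cell lists stayed negative (−1.03 and −1.94) and that of the white blood cell list became 0.26.

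Names tied to granulosa and luteal cells were not high as a group. Of 17 listed names 16 were in the table and 12 were compared. Of these, 2 lay above the median, miR-503 and miR-320 (at −1.41 with miR-143 kept), and 6 of the 11 that could be called below were, near the 47.5% of all names. The list median of −2.01 turned to 0.52 with let-7 out of the totals. miR-132, induced in granulosa cells by luteinising hormone, had 3 ovary reads, and miR-224 and miR-383, known from granulosa cells, had 0, which allows 10.3 RPM each. The medians elsewhere of these names also lay under the 34.2 RPM of 10 ovary reads. None of them could be called below, and their counts are not read as low. miR-182 had 171 RPM in ovary against a median of 1068, and miR-183 of the same cluster 51.3 RPM against 278.

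Mesenchymal and stromal names had 3 of 11 above the median, near the 23.5% of all 149 names. At least 4-fold below were 3 of 11, against 47.5% of all names. Their list median of −1.77, close to the −1.83 of all names, turned to 0.85 with let-7 out of the totals. miR-214, known from developing mesenchyme, had 31 reads and 106 RPM in ovary, against 0 in cerebellum, a median of 36.8 and 381 RPM in the library labelled colon. Ovary ranked second, at a log2 fold of 1.504 that became −0.04 with miR-143 kept. miR-199a-3p had 554 RPM in ovary against a median of 510. The names below were miR-145, miR-143* and miR-23b, the last with 71.8 RPM in ovary against 581.

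Lists of widespread miRNAs were low or near the median of all names. Of the miR-17-92 cluster and its paralogs, linked to proliferation, 5 of 6 were at least 4-fold below, against 47.5% of all names. Their median was −2.92, and miR-92a had 27.4 RPM in ovary against a median of 248. The exception was miR-106b at −0.83. Of miR-29, miR-26 and miR-101 names 4 of 7 were below, near the 47.5% of all names, with a median of −2.63, and miR-101a had 1026 RPM in ovary against 7285. Of miR-99, miR-100, miR-125 and miR-10 names 0 of 7 were below and miR-10b was above, with a median of −1.41 that turned to 1.16 with let-7 out of the totals and to 0.13 with median-of-ratios factors. For the other lists of this paragraph the median stayed negative under each scaling.

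The imprinted Dlk1-Dio3 locus, active in brain and in the embryo, lay nearest to the median tissue among the lists with 5 or more compared names. Of 29 names 10 had ovary reads and 5 were compared, with a median of −0.40 that turned positive under 5 alternatives, to 0.81 with median-of-ratios factors. miR-434-3p had 109 reads and 373 RPM in ovary, against 4.53 in liver, a median of 98.0 and 8731 in cerebellum. miR-379 had 404 RPM in ovary against 535, and miR-127 85.5 RPM against 439, at least 4-fold below.

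Markers of other organs summed to less in ovary than in the organ they mark. Striated muscle names summed to 865 RPM in ovary against 418082 in oesophagus, hepatic names to 10.3 RPM against 466083 in liver, and neural names to 23.9 RPM against 97428 in brain. Few names of these lists were compared, 1 of 7, 1 of 3 and 3 of 8, and 2 of the 3 neural ones had no ovary read. Each compared name was at least 4-fold below in ovary, against 47.5% of all names. With so few names, these counts are not read as a trait of the lists. Of the intestinal names 2 of 3 were below, with a median of −2.19 that stayed negative under each scaling. Pancreatic names summed to 3157 RPM in ovary, all from miR-148a, against 655841 in pancreas. Renal names, the miR-30 family, summed to 9222 RPM in ovary, against 110478 in kidney and 111533 in lung. This list is therefore not particular to kidney in these libraries. Of the renal names 4 of 7 were below, near the 47.5% of all names. Their median of −2.03, close to the −1.83 of all names, turned to 0.36 with let-7 out of the totals. Squamous names summed to 10.3 RPM in ovary against 26524 in oesophagus. The 12 pluripotency names had 0 reads in ovary, and the highest sum elsewhere was 1.30 RPM in lung.

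**Figure D5:**
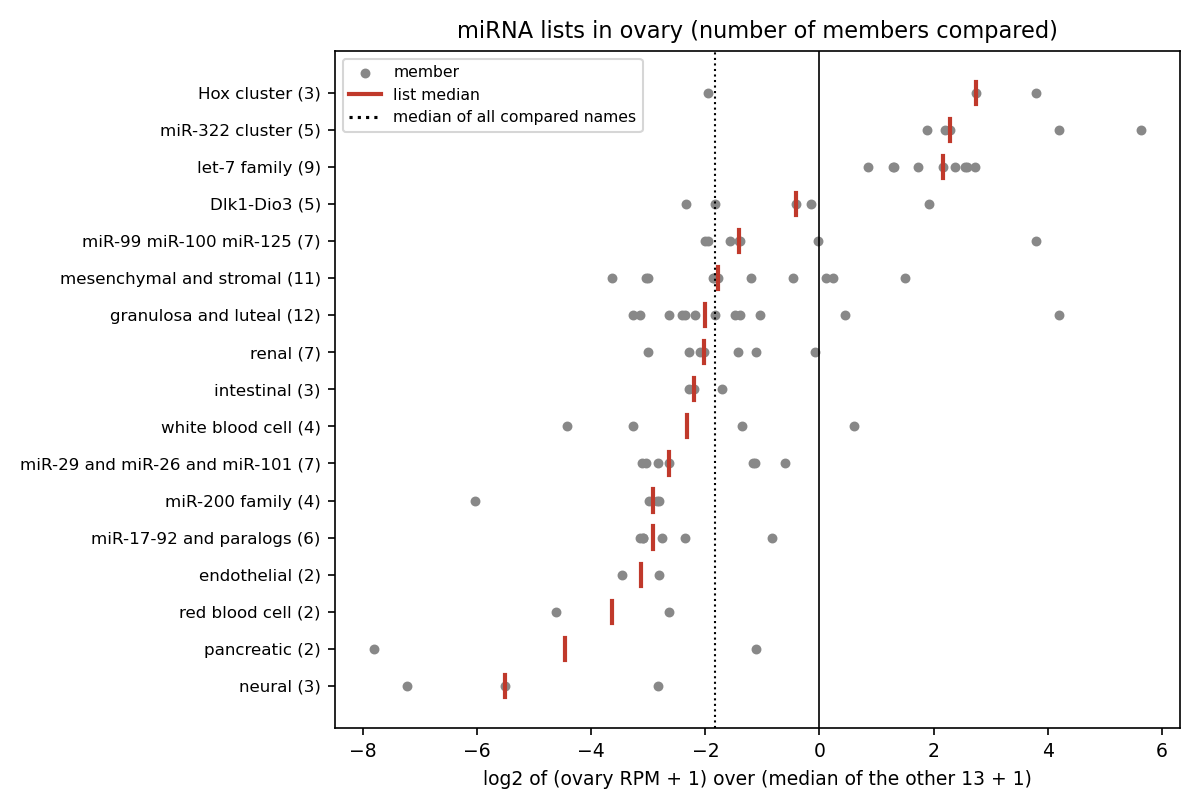
Grey points are the log2 folds of ovary over the median of the other 13 libraries for the compared names of each list, red bars are list medians, and the dotted line is the −1.83 median of all 149 names. The let-7 median lies at 2.17 (−0.38 with miR-143 kept in the totals), the Hox and miR-322 points include names compared through their ovary reads alone, and the neural and pancreatic medians, at −5.51 and −4.46, become −2.82 and −2.71 when names with no ovary read are set to their limit.

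By rank over the 99 names, ovary was most like the library labelled colon (Spearman's rho 0.78), then heart (0.72) and lung (0.71), and least like stomach (0.56). The library labelled uterus stood at 0.61. Without let-7, over 90 names, the first 3 were again the library labelled colon (0.73), heart (0.68) and lung (0.67). These values are descriptions across names that share libraries and depth, and ovary, with 87.1% miR-143, was most like the library with the largest share of it, 98.7%. Among the 13 others, lung was the highest library for 25 of the 99 names, cerebellum for 14 and the library labelled colon for 13.

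At the edge of the minimum of 10 reads stood miR-125b-2-3p, miR-151-5p and miR-27a* with 10 reads each, at log2 folds of −0.32, −3.29 and −0.09. Just outside, with 9 reads, were miR-17, miR-24-2*, miR-25, miR-421 and miR-652, at −2.36, −1.27, −2.76, 0.31 and −2.15. Another 152 names had 1 to 8 ovary reads, and 548 names with reads elsewhere had none in ovary.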

How the data were processed

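The authors deposited 1 table of unscaled whole read counts, with mature miRNA names in rows and 14 tissues in columns. For trimming, alignment, miRNA release and genome build, tools and versions were not given in the sources used here, and neither was the handling of reads that match several names. miR-199a-3p and miR-199b, which have the same mature sequence, held reads in a ratio of 1.96 to 2.02 in the libraries.

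The row of miR-143 was removed, and counts were divided by the remaining total and multiplied by 1000000. Folds set ovary over the median of the other 13 libraries with 1 RPM added, and 4-fold was the call. Names need 10 ovary reads to be called above, and a median elsewhere worth 10 ovary reads to be called below. Intervals are exact Poisson, Clopper-Pearson or conditional binomial at 95%. Without molecular identifiers on the reads, they cover counting error only.

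Named are members of the 24 lists, the most abundant names, names highest in ovary, the largest and smallest folds, and 6 hairpins farthest from the median. The members and lists were chosen with earlier results of these data known. Alternatives were other totals and size factors, a pseudocount of 10 RPM, other minimums and folds, libraries left out, and identical names counted once. The rule was tested on simulated data. Python 3.11.15, numpy 2.4.6, pandas 2.3.3, scipy 1.17.1 and matplotlib 3.10.9 were used.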

Additional observations from a re-analysis of the deposited data

Results flagged for a closer look

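Among names with fewer than 10 ovary reads, which the comparisons leave out, 5 had a higher level in ovary than in any other library. miR-202-5p, the partner arm of miR-202-3p, had 6 reads and 20.5 RPM in ovary, against 0.402 RPM (2 reads) in brain and no read elsewhere, and its interval over brain was 9.14 to 518. miR-1247* had 5 reads and 17.1 RPM in ovary, against 14.8 RPM in kidney. miR-296-3p had 5 reads and 17.1 RPM in ovary, against 16.2 RPM in spleen. miR-351*, from the miR-322 cluster, had 4 reads and 13.7 RPM in ovary, against 12.6 RPM in lung. miR-547 had 4 reads and 13.7 RPM in ovary, against 11.6 RPM in the library labelled colon, which is 1 read. For these 4 the interval of the fold over the next library spans 1.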

How the results depend on the processing

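Scaling moved the counts most. Names at least 4-fold above numbered 16, within 1.5 times under 11 of 14 alternatives, and otherwise 3 with miR-143 kept in the totals, 6 at 8-fold and 42 with let-7 out of the totals. Names at least 4-fold below numbered 67, within 1.5 times under 9 of 14, and otherwise 170 with miR-143 kept, 14 with median-of-ratios factors, 23 without the 5 most abundant names, 34 at 8-fold and 4 with let-7 out. Names highest in ovary numbered 7, within 1.5 times under 7 of 11, and otherwise 3 with miR-143 kept, 17 with median-of-ratios factors, 14 without the 5 most abundant and 20 with let-7 out. The median log2 fold of the 149 names moved by −1.58 with miR-143 kept, 1.59 with median-of-ratios factors, 1.17 without the 5 most abundant, 2.45 with let-7 out, 0.29 with a pseudocount of 10 RPM and 0.17 without the libraries labelled colon and uterus. With miR-143 kept, let-7b turned to −0.47, let-7c to −0.12 and miR-322 to −0.080. With let-7 out, names called below turned to 0.27 (miR-103), 0.16 (miR-16), 0.26 (miR-181b), 0.12 (miR-182), 0.12 (miR-183), 0.41 (miR-23a), 0.59 (miR-28*), 0.36 (miR-30a*), 0.26 (miR-30c), 0.041 (miR-30e*), 0.62 (miR-652) and 0.51 (miR-872). These turns follow from the totals used. All 16 names called above kept their sign under the 9 alternatives tried for folds except with miR-143 kept (13 of 16), and all 67 called below except with let-7 out (55 of 67). Leaving out brain and cerebellum, or the libraries labelled colon and uterus, miR-322 had a log2 fold of 1.91, under 4-fold. Totals without let-7 and the run without the library labelled colon alone were chosen after seeing the data. Depth limits the names under 10 reads most, since 10 reads carry an interval of 16.4 to 62.9 RPM. No paired analysis was possible because each tissue has 1 library.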
